A study of Mus musculus with 16 samples.

Results

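The genes described here supply the glycerol backbone of stored fat and join fatty acids to it. The 9 genes were taken by name as a textbook pathway, with no rule on their values but with earlier results of these data known: Pck1, Gpd1, Aqp7, Gpam, Agpat2, Lpin1, Dgat1, Dgat2 and Mogat2. They are 9 of the 14023 genes in the table. All 9 were in it, and all 9 passed the filter on low values that left 13669 genes to test. RNA was measured in whole epididymal fat (eWAT) and whole inguinal fat (iWAT) of wild-type (WT) mice and of mice homozygous for K107R, a PPARg in which the lysine that can carry the small protein SUMO is replaced by arginine. All mice had eaten chow for 10 weeks and then a diet with 60% of calories from fat for 19 weeks. For the last 1 week they received by gavage either rosiglitazone, a drug that activates PPARg, at 10 mg/kg, or the vehicle, 1% methylcellulose. Depot, genotype and treatment gave 8 groups of 2 libraries, numbered 1 and 2.

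A fat cell stores fatty acids as triglyceride, which needs a phosphorylated glycerol backbone. The backbone comes from glucose, from pyruvate by the route called glyceroneogenesis, or from glycerol itself. Acyltransferases then add fatty acids in sequence, and a phosphatase removes the phosphate, until triglyceride is complete. PPARg is the master regulator of the fat cell, and genes of fat storage, Pck1 and Aqp7 among them, are known targets of it.

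Values are FPKM (sequenced fragments divided by transcript length and library size), a measure per length that lets levels of different genes be set side by side. None of the 9 genes was listed at 0 in any library. Because FPKM carries no counts, the depth of the libraries is unknown. The number 1 libraries had a median FPKM over all genes of 8.95 to 9.61, and the number 2 libraries 5.36 to 7.92, apart from eWAT K107R rosiglitazone number 2 at 8.83. Fat cell markers were high in every library: the sum of 8 of the 10 fixed markers ran from 5696 to 16371 FPKM. The other two, Fabp4 and Lpl, were listed at 0 in whole groups and were left out of that sum. Both eWAT K107R vehicle libraries carried 2879 and 2776 FPKM of 5 epididymis markers, against 4.49 at most in any other library. Setting aside the 58 genes seen in those eWAT libraries alone, with the rest rescaled by 1.014 and 1.013, changed no count of members called. That setting leaves in any epididymal RNA of the members themselves, so the part of such RNA was not tested.

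With rosiglitazone Gpd1 rose and Mogat2 fell in both depots and both genotypes, while Gpam and Dgat2 were called in none of these comparisons. Changes are differences of log2(FPKM + 1), tested with limma over all genes, and a gene was called at an adjusted p under 0.05. In eWAT of WT mice 3 of the 9 genes were called, where 0.446% of all tested genes were: Pck1 and Gpd1 rose and Mogat2 fell. The same 3 were called in eWAT of K107R mice, where the background was 4.89%. In iWAT of WT mice 3 were called against a background of 1.68%, with Gpd1 and Agpat2 up and Mogat2 down. In iWAT of K107R mice 5 were called against 4.21%, with Pck1, Gpd1, Agpat2 and Dgat1 up and Mogat2 down. The median change of the 9 genes was 0.59, 0.56, 0.85 and 0.79 in these comparisons, and that of all tested genes 0.034, 0.17, 0.027 and 0.027.

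The libraries with the same number deviated together, so a fit with the replicate number as a block is given wherever it changed the call of one of the 9 genes. With the block 4 genes were called in eWAT WT (background 2.47%), 6 in eWAT K107R (10.9%), 6 in iWAT WT (6.98%) and 6 in iWAT K107R (12.4%). Averaged over the genotypes, 4 genes were called in eWAT against 5.18% (7 with the block, against 11.7%) and 5 in iWAT against 5.36% (7 with the block, against 16.2%). Without the block the eWAT genes were Pck1 (0.94), Gpd1 (1.04), Agpat2 (0.54) and Mogat2 (−1.16). The iWAT genes were Pck1 (0.61), Gpd1 (1.29), Agpat2 (0.90), Dgat1 (0.86) and Mogat2 (−1.15). Each p sets a difference of group means against the spread between libraries within groups, pooled over all groups. Nothing in the labels says that the 2 libraries of a group came from separate mice, so that spread may be technical. In whole tissue, fewer cells of a type and less RNA per cell cannot be told apart.

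**Figure D1:**
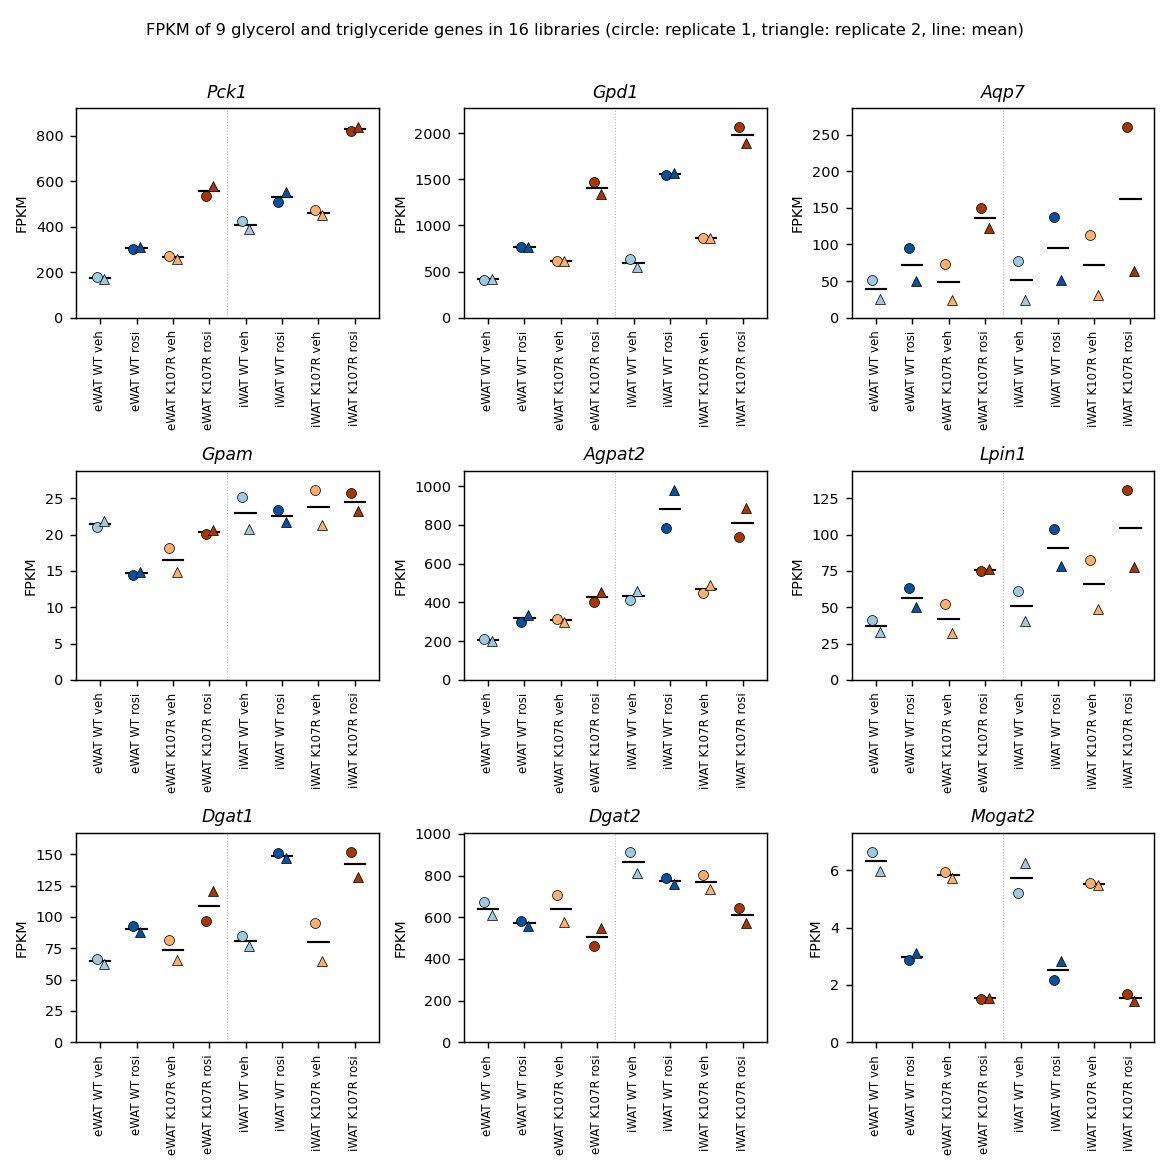
FPKM of each of the 9 genes (vertical axes, linear, from 0) in the 16 libraries, by group: circles are number 1, triangles number 2 and lines the mean of the pair. Pck1 ran from 169 to 837 and Gpd1 from 411 to 2063 with close pairs, Aqp7 pairs lay far apart in all but eWAT K107R rosiglitazone, and Mogat2 was low in every rosiglitazone group.

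Pck1 encodes the cytosolic phosphoenolpyruvate carboxykinase, the committed enzyme of glyceroneogenesis (chromosome 2, 173153073 to 173159274, forward strand, GRCm38.p6, the assembly of mm10). In eWAT its libraries read 179 and 169 FPKM in WT vehicle, 300.3 and 311 in WT rosiglitazone, 271 and 258 in K107R vehicle, and 536 and 577 in K107R rosiglitazone. In iWAT they read 424 and 392, 509.8 and 554, 473 and 451, and 822 and 837 in the same order. The treated pair lay above its vehicle pair each time, and the order of the 8 group means ran from eWAT WT vehicle at the bottom to iWAT K107R rosiglitazone at the top. Only eWAT K107R rosiglitazone and iWAT WT rosiglitazone overlapped among neighbours in that order.

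With rosiglitazone Pck1 rose 1.76-fold in eWAT WT (log2 change 0.81 ± 0.10 SE, adjusted p = 0.014) and 2.11-fold in eWAT K107R (1.07 ± 0.10, adjusted p = 7.9e-05). It rose 1.8-fold in iWAT K107R (0.84 ± 0.10, adjusted p = 0.0016). In iWAT WT the means were 408 and 532 and the change of 0.38 ± 0.10 had an adjusted p of 0.14, or 0.029 with the block. The call in eWAT WT ended when any of its 4 libraries was left out (adjusted p up to 0.22) and when only eWAT libraries were fitted (0.15). Scaling each library by its median ratio left log2 changes of 0.80, 0.85 and 0.82 in the 3 called comparisons but ended those calls (adjusted p = 0.67, 0.25 and 0.25), and fitting iWAT alone gave 0.099 in iWAT K107R.

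The Pck1 promoter is shown because the gene rose in 3 of the 4 drug comparisons, with close pairs of libraries. The stretch below is chr2:173152823-173153047 on the forward strand, from the RefSeq promoter table (GRCm38.p6). The capitals mark TTACGTCA, a close variant of the cyclic AMP response element TGACGTCA, 93 to 86 bases before the RefSeq start.
Pck1 promoter: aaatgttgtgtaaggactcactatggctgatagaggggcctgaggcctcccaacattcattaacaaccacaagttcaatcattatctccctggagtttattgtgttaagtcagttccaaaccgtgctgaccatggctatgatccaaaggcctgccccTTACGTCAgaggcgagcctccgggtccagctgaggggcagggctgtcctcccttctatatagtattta
In the 250 bases before 32851 annotated starts, read on both strands, TTACGTCA occurred in 0.447% and TGACGTCA in 1.55%. Of the other motifs searched in this window (the hexamer AGGTCA on its own, the DR1 repeat of that hexamer with any base between the copies, at up to 2 mismatches, and the pentamer CCAAT), none had a match in Pck1, which says only that these letters are not in this window.

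Gpd1 encodes the cytosolic glycerol phosphate dehydrogenase, which reduces dihydroxyacetone phosphate to the backbone (chromosome 15, 99717587 to 99725014, forward strand). Its eWAT libraries read 411 and 416 FPKM in WT vehicle, 770.0 and 762 in WT rosiglitazone, 616 and 611 in K107R vehicle, and 1473 and 1335 in K107R rosiglitazone. The iWAT libraries read 636 and 545, 1542 and 1567, 867 and 864, and 2063 and 1892. It was the most abundant of the 9 genes in every group but both WT vehicle groups and eWAT K107R vehicle, where Dgat2 had the higher mean. No treated pair overlapped its vehicle pair. Neighbouring groups in the order of means overlapped only for eWAT K107R vehicle and iWAT WT vehicle.

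Gpd1 rose with rosiglitazone in all 4 comparisons by limma: 1.85-fold in eWAT WT (0.89 ± 0.11, adjusted p = 0.014), 2.29-fold in eWAT K107R (1.19 ± 0.11, adjusted p = 7.3e-05), 2.63-fold in iWAT WT (1.40 ± 0.11, adjusted p = 0.0005) and 2.28-fold in iWAT K107R (1.19 ± 0.11, adjusted p = 0.00039). Leaving out any eWAT WT library ended the call there (adjusted p up to 0.19), and fitting the depot alone ended it in every comparison but eWAT K107R (0.15 in eWAT WT, 0.19 in iWAT WT, 0.063 in iWAT K107R). With median-ratio scaling the changes were 0.88, 0.97, 1.37 and 1.17 and no call remained (adjusted p = 0.51, 0.14, 0.055 and 0.066).

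Aqp7 encodes the glycerol channel of the fat cell membrane (chromosome 4, 41033074 to 41048237, reverse strand). Its 2 libraries of a group disagreed widely. In eWAT they read 52.1 and 26.0 FPKM in WT vehicle, 94.6 and 50.2 in WT rosiglitazone, 72.7 and 23.9 in K107R vehicle, and 149.7 and 122 in K107R rosiglitazone. In iWAT they read 77.5 and 24.1, 138 and 51.2, 113 and 31.5, and 260.1 and 63.9. Number 2 was below number 1 in 8 of 8 groups, at a ratio of 0.246 to 0.815, and the standard deviation within groups was 1.01 on the log2 scale, against 0.0604 for Pck1. Within each number, every treated library was above its vehicle library.

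The Aqp7 change with rosiglitazone was 0.89 ± 0.91 in eWAT WT, 1.67 ± 0.91 in eWAT K107R, 0.94 ± 0.91 in iWAT WT and 1.09 ± 0.91 in iWAT K107R. None was called by limma (adjusted p = 1, 0.68, 1 and 0.94). With the block it was called in eWAT K107R (adjusted p = 0.012) and in the averages over genotypes of eWAT (1.28, adjusted p = 0.0071) and iWAT (1.02, adjusted p = 0.019). The number 2 libraries also had the lower median FPKM over all genes, and eWAT K107R rosiglitazone number 2, the library with the least loss of Aqp7, had the least loss of that median; the part of this difference in the Aqp7 values was not tested.

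The Aqp7 promoter is shown for 2 stretches that resemble DR1, the repeat that PPARg and its partner RXR bind. The gene has 2 promoter entries, with starts 174 bases apart. Both starts lie inside the RefSeq span given above, which runs to 41048237, and so do both stretches. Upstream of the inner start the search found both stretches, on the strand opposite to the gene, with 2 mismatches each to the DR1 repeat. The lines give the gene's strand (GRCm38.p6, reverse strand of chromosome 4), and capitals mark the match. The first is chr4:41048172-41048200, 230 to 218 bases before the start, and the second is chr4:41048043-41048071, 101 to 89 bases before it.
Aqp7 DR1-like, outer: ctggaactCCACCTCTGACCTcacaaggg
Aqp7 DR1-like, inner: tgccctacTGACCTCTCCCCTggagaagc
At up to 2 mismatches such a match occurred in 3.24% of all promoters of this length, and each includes a TGACCT, the reverse complement of AGGTCA, which occurred in 14.0%. The outer match lies in both promoters of the gene because the windows overlap. A match is a description and not evidence of binding.

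Gpam encodes the mitochondrial acyltransferase that adds the first fatty acid to the backbone (chromosome 19, 55067635 to 55127319, reverse strand). None of its drug comparisons was called. Its eWAT libraries read 21.0 and 21.9 FPKM in WT vehicle, 14.5 and 14.9 in WT rosiglitazone, 18.1 and 14.9 in K107R vehicle, and 20.1 and 20.7 in K107R rosiglitazone. The iWAT libraries read 25.2 and 20.8, 23.4 and 21.8, 26.2 and 21.3, and 25.7 and 23.3, and all these pairs overlapped. In eWAT the treated libraries lay below vehicle in WT and above vehicle in K107R.

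The Gpam change was −0.51 ± 0.15 in eWAT WT (adjusted p = 0.37) and 0.30 ± 0.15 in eWAT K107R (adjusted p = 0.62), neither called. In iWAT the 95% interval of the change was −0.36 to 0.32 in WT and −0.29 to 0.39 in K107R. The RefSeq promoters of Gpam held a CCAAT, on the opposite strand, before the outer start and an AGGTCA before the inner one. CCAAT occurred in 33.8% of all promoters.

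Agpat2 encodes the acyltransferase of the endoplasmic reticulum that adds the second fatty acid, and its loss is known to cause lipodystrophy (chromosome 2, 26593057 to 26604417, reverse strand). Its eWAT libraries read 210.4 and 201 FPKM in WT vehicle, 299.7 and 336 in WT rosiglitazone, 316 and 301 in K107R vehicle, and 401 and 452 in K107R rosiglitazone. The iWAT libraries read 412 and 457, 784 and 982, 449 and 489, and 737 and 887. Treated pairs were above their vehicle pairs in every case, and the iWAT rosiglitazone groups were the highest of all and overlapped each other.

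Agpat2 rose 2.03-fold with rosiglitazone in iWAT WT (1.01 ± 0.15, adjusted p = 0.0095) and 1.73-fold in iWAT K107R (0.79 ± 0.15, adjusted p = 0.015). In eWAT the changes of 0.62 ± 0.15 in WT and 0.46 ± 0.15 in K107R had adjusted p of 0.17 and 0.16, or 0.016 and 0.021 with the block, and the average over genotypes rose by 0.54 ± 0.11 (adjusted p = 0.012). That average was called in 3 of 8 fits without a library (adjusted p up to 0.084), the exceptions being number 2 of every eWAT group and K107R vehicle number 1, and it ended with median-ratio scaling (0.8). Each iWAT call remained in only 1 of the 4 fits without a library (adjusted p up to 0.10 in WT and 0.14 in K107R: both vehicle libraries and rosiglitazone number 2 were needed in each). Each also ended with median-ratio scaling (0.41 and 0.5) and with iWAT alone (0.31 and 0.22). None of the motifs searched occurred in the Agpat2 promoter window.

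Lpin1 encodes lipin, the phosphatase that turns phosphatidate into diacylglycerol (chromosome 12, 16535669 to 16653903, reverse strand). Its eWAT libraries read 41.0 and 33.3 FPKM in WT vehicle, 63.0 and 50.2 in WT rosiglitazone, 52.3 and 32.2 in K107R vehicle, and 74.8 and 76.2 in K107R rosiglitazone. The iWAT libraries read 61.4 and 40.4, 104 and 78.3, 82.6 and 49.0, and 131 and 77.6. As with Aqp7 the number 2 library was mostly the lower, in 7 of 8 groups, and treated libraries were above vehicle within each number.

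The Lpin1 change was 0.59 ± 0.35 in eWAT WT, 0.86 ± 0.35 in eWAT K107R, 0.85 ± 0.35 in iWAT WT and 0.65 ± 0.35 in iWAT K107R. None was called (limma adjusted p = 1, 0.36, 0.49 and 0.58). With the block the last 3 were called (adjusted p = 0.011, 0.02 and 0.039). So were the averages over genotypes, 0.73 in eWAT (adjusted p = 0.19, and 0.0038 with the block) and 0.75 in iWAT (0.15, and 0.0029 with the block). With median-ratio scaling the same 3 single comparisons were called as well, at 0.64, 0.82 and 0.63 (adjusted p = 0.0062, 0.005 and 0.0099). The promoter entry of Lpin1 lies before a start at 16610966. This is inside the RefSeq span given above, not at its outer end at 16653903. The entry held a single AGGTCA on the gene's strand, 74 to 69 bases before that start. The line gives chr12:16611027-16611048 on the reverse strand (GRCm38.p6, RefSeq), with the match in capitals, because it is the only motif match in that window.
Lpin1 promoter: gtagcttgAGGTCActtcctgt

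Dgat1 and Dgat2 encode unrelated enzymes for the same last step, the joining of a fatty acid to diacylglycerol (Dgat1 on chromosome 15, 76502012 to 76512021; Dgat2 on chromosome 7, 99153663 to 99182713; both on the reverse strand). Dgat1 read 66.7 and 62.3 FPKM in eWAT WT vehicle, 92.4 and 88.3 in WT rosiglitazone, 81.8 and 65.3 in K107R vehicle, and 96.8 and 121 in K107R rosiglitazone. In iWAT it read 84.7 and 77.1, 151 and 147, 95.4 and 64.8, and 152 and 132. Treated libraries were above vehicle in every group pair, and the iWAT treated groups were the highest.

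Dgat1 rose 1.78-fold in iWAT K107R (0.84 ± 0.19, adjusted p = 0.038). In iWAT WT the change was as large, 0.87 ± 0.19, with an adjusted p of 0.062, or 0.012 with the block. In eWAT the changes of 0.48 ± 0.19 in WT and 0.56 ± 0.19 in K107R were not called (adjusted p = 0.81 and 0.21); their average over genotypes, 0.52, was called with the block alone (adjusted p = 0.063, and 0.017 with it). The iWAT K107R call ended without vehicle number 2 or either rosiglitazone library (adjusted p up to 0.25), with median-ratio scaling (0.072) and with iWAT alone (0.25).

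Dgat2 went the other way. It read 675 and 609 FPKM in eWAT WT vehicle, 581 and 559 in WT rosiglitazone, 708 and 576 in K107R vehicle, and 464 and 550.3 in K107R rosiglitazone. In iWAT it read 914 and 813, 789.9 and 758, 803 and 738, and 645 and 572. Every treated pair lay below its vehicle pair, and the changes were −0.17 ± 0.15 in eWAT WT, −0.34 ± 0.15 in eWAT K107R, −0.16 ± 0.15 in iWAT WT and −0.34 ± 0.15 in iWAT K107R. None was called (limma adjusted p = 1, 0.42, 1 and 0.36).

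Mogat2 encodes an acyltransferase that builds diacylglycerol from monoacylglycerol, the route known best from the intestine (chromosome 7, 99219084 to 99238611, reverse strand). It is the neighbour of Dgat2, with a gap of 36370 bases and 0 other RefSeq genes between them. It was the scarcest of the 9 genes in every group. Its eWAT libraries read 6.65 and 5.99 FPKM in WT vehicle, 2.86 and 3.10 in WT rosiglitazone, 5.96 and 5.73 in K107R vehicle, and 1.51 and 1.56 in K107R rosiglitazone. The iWAT libraries read 5.23 and 6.27, 2.18 and 2.84, 5.58 and 5.49, and 1.68 and 1.44. The 4 vehicle groups stood above the 4 rosiglitazone groups with no overlap, and among treated groups the K107R libraries were lowest.

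Mogat2 fell with rosiglitazone in all 4 comparisons by limma. It dropped to 47.1% of the vehicle mean in eWAT WT (log2 change −0.88 ± 0.15, adjusted p = 0.044) and 26.2% in eWAT K107R (−1.44 ± 0.15, adjusted p = 0.00011). It dropped to 43.7% in iWAT WT (−0.95 ± 0.15, adjusted p = 0.012) and 28.2% in iWAT K107R (−1.35 ± 0.15, adjusted p = 0.00065). In eWAT WT the call ended without any of the 4 libraries (adjusted p up to 0.43), with a pseudocount of 0.1 (0.054), with eWAT alone (0.15) and with median-ratio scaling (0.43). In iWAT WT it ended without either vehicle library or rosiglitazone number 1 (up to 0.12), with scaling (0.15) and with iWAT alone (0.39), and iWAT alone also gave 0.095 in iWAT K107R.

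**Figure D2:**
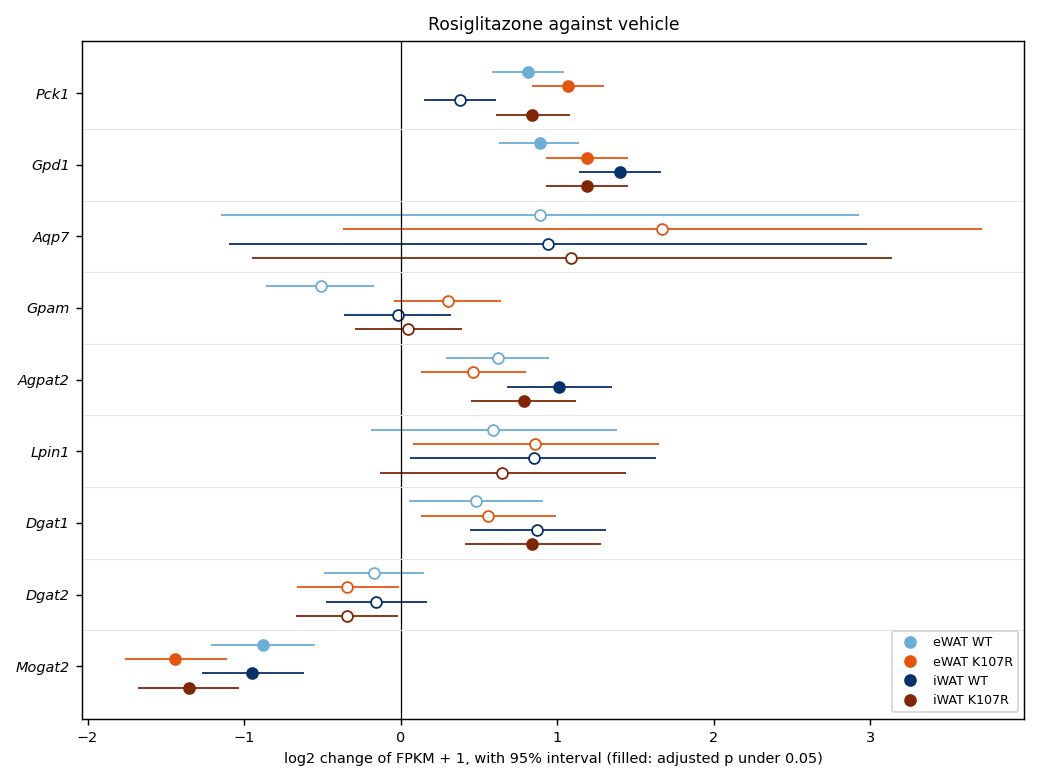
Rosiglitazone against vehicle for the 9 genes: log2 change of FPKM + 1 (horizontal axis) with its 95% interval, in 4 comparisons of 2 against 2 libraries, filled where the limma adjusted p was under 0.05. Gpd1 and Mogat2 are filled in all 4, on opposite sides of 0, and the Aqp7 intervals all cross 0 in this fit without the block.

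Between genotypes within a treatment the limma calls without the block fell on Pck1 and Gpd1, with Agpat2 added in the eWAT average over treatments. These comparisons use the same libraries as those of the drug and are not independent of them. In vehicle eWAT 2 of the 9 genes were called between K107R and WT, where 3.35% of all tested genes were, and both were higher in K107R: Pck1 (174 in WT and 264 FPKM in K107R, log2 difference 0.60 ± 0.10, limma adjusted p = 0.0076) and Gpd1 (414 and 614, 0.57 ± 0.11, adjusted p = 0.021). Agpat2 was 206 and 308 FPKM (0.58 ± 0.15, adjusted p = 0.078) and joined them with the block (0.0083), making 3 against a background of 8.30%. No library of these K107R groups overlapped its WT group for these genes.

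Under rosiglitazone in eWAT the same 2 genes were called, against 0.907%: Pck1 (306 and 557 FPKM, 0.86 ± 0.10, adjusted p = 0.0033) and Gpd1 (766 and 1404, 0.87 ± 0.11, adjusted p = 0.0063). Mogat2 was 2.98 and 1.53 FPKM, a difference of −0.65 ± 0.15 (adjusted p = 0.098) that was called with the block (0.02), making 3 against 3.47%. Averaged over treatments in eWAT, Pck1 (0.73), Gpd1 (0.72) and Agpat2 (0.50, adjusted p = 0.023) were called, 3 against 4.30% (4 with the block, against 11.9%, with Mogat2 added at −0.37 and adjusted p = 0.022).

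The eWAT genotype calls rested on few libraries. In vehicle, Gpd1 was no longer called without any of the 4 libraries (adjusted p up to 0.25), nor Pck1 without any but WT number 1 (up to 0.17). Under rosiglitazone, Pck1 was lost without K107R number 2 or WT number 1 (up to 0.054), and Gpd1 without K107R number 1 or either WT library (up to 0.084). Both were lost with eWAT alone (0.072 and 0.1 in vehicle, 0.073 and 0.076 under rosiglitazone) and with median-ratio scaling, where the differences were 0.78 and 0.75 in vehicle and 0.82 and 0.83 under rosiglitazone. The Agpat2 average over treatments remained in 1 of 8 fits without a library (adjusted p up to 0.14), the fit without K107R rosiglitazone number 1.

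In vehicle iWAT none of the 9 genes was called by limma, where 0.578% of all genes were, and 1 had an unadjusted p under 0.05. That gene was Gpd1 (591 and 866 FPKM, 0.56 ± 0.11, adjusted p = 0.089), called with the block (0.012, 1 gene against 2.12%). Under rosiglitazone in iWAT 1 gene was called against 4.13%: Pck1 (532 and 829.7 FPKM, 0.64 ± 0.10, adjusted p = 0.0052). Gpd1 was 1554 and 1978 FPKM there (0.35 ± 0.11, adjusted p = 0.20, and 0.035 with the block, 2 genes against 9.36%). Averaged over treatments in iWAT both were called, 2 against 4.69% and again 2 with the block against 11.1%: Pck1 by 0.41 (adjusted p = 0.0089) and Gpd1 by 0.45 (adjusted p = 0.0091). The Pck1 call under rosiglitazone ended without K107R number 2 or WT number 1 (up to 0.058), with iWAT alone (0.14) and with median-ratio scaling (0.4).

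Both averages ended with median-ratio scaling (0.41 and 0.31) and with iWAT alone (0.17 each). The remaining genes gave no genotype call in iWAT. Agpat2, high in treated iWAT, was 883 FPKM in WT and 812 in K107R under rosiglitazone (−0.12, 95% interval −0.45 to 0.21), and Dgat1 was 149 and 142 (−0.068, interval −0.50 to 0.36). Dgat2 was 774 and 608 (−0.35 ± 0.15, adjusted p = 0.41), and Mogat2 2.51 and 1.56 (−0.45 ± 0.15, adjusted p = 0.18). The K107R libraries did not overlap the WT libraries for Dgat2 and Mogat2 there.

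None of the remaining differences between genotypes was called by limma, with or without the block. In the order vehicle eWAT, treated eWAT, vehicle iWAT and treated iWAT, Aqp7 differed by 0.18, 0.96, 0.46 and 0.61 (SE 0.91 each) and Lpin1 by 0.15, 0.42, 0.35 and 0.15 (SE 0.35 each). Gpam differed by −0.36, 0.45, 0.045 and 0.11 (SE 0.15 each), so it was lower in K107R under vehicle and higher under drug in eWAT, with limma adjusted p of 0.49 and 0.43. Dgat1 differed in eWAT by 0.18 and 0.26 (SE 0.19) and Dgat2 by −0.0067 and −0.17 (SE 0.15). In vehicle iWAT Dgat1 differed by −0.039 and Dgat2 by −0.16. Agpat2 differed by 0.42 ± 0.15 in treated eWAT (adjusted p = 0.46) and 0.11 ± 0.15 in vehicle iWAT, Pck1 by 0.18 ± 0.10 in vehicle iWAT, and Mogat2 under vehicle by −0.096 in eWAT and −0.043 in iWAT. With median-ratio scaling Dgat2 in vehicle eWAT was 0.17, Mogat2 under vehicle 0.058 and 0.023, and Dgat1 in iWAT 0.038 and 0.013, each of the other sign, and the averages of Lpin1 over treatments were called (0.35 in eWAT, adjusted p = 0.031, and 0.33 in iWAT, 0.04).

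**Figure D3:**
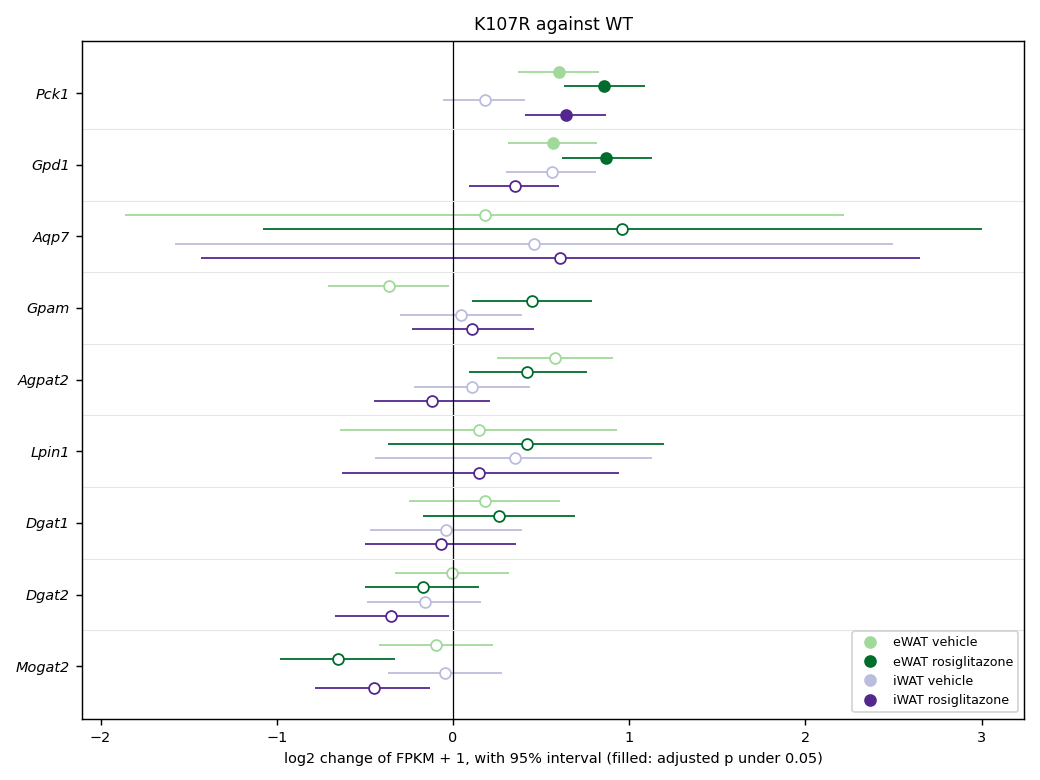
K107R against WT for the 9 genes: log2 difference of FPKM + 1 (horizontal axis) with its 95% interval, in each depot and treatment, filled where the limma adjusted p was under 0.05. Pck1 is filled in 3 comparisons and Gpd1 in 2, both in eWAT, and the differences of Dgat1 lie between −0.068 and 0.26.

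Whether the drug acted differently in the 2 genotypes was tested as an interaction. In eWAT no gene of the 9 was called by limma, against 2.53% of all genes, and 2 had an unadjusted p under 0.05, Gpam and Mogat2. The Gpam interaction was 0.81 ± 0.22 (adjusted p = 0.13) and was called with the block (0.022, 1 gene against 4.20%); with median-ratio scaling it was 0.61 (adjusted p = 0.93). For Mogat2 the fall was larger in K107R by 0.56 on the log2 scale (interaction −0.56 ± 0.21, adjusted p = 0.49). The rises of Pck1 and Gpd1 differed by 0.26 (95% interval −0.068 to 0.59) and 0.30 (−0.059 to 0.67). The interactions of Aqp7 (0.78 ± 1.29), Lpin1 (0.27 ± 0.50), Agpat2 (−0.16 ± 0.21), Dgat2 (−0.17 ± 0.21) and Dgat1 (0.08 ± 0.27, and −0.13 with scaling) were within their errors. In iWAT none was called with or without the block, against 0.966% (2.53% with it), and 1 had an unadjusted p under 0.05: Pck1, whose rise was larger in K107R by 0.46 ± 0.15 (adjusted p = 0.42). The iWAT interaction of Mogat2 was −0.41 ± 0.21 and that of Gpd1 −0.21 ± 0.16, and those of Aqp7, Gpam, Agpat2, Lpin1, Dgat1 and Dgat2 were 0.15, 0.068, −0.23, −0.19, −0.03 and −0.19.

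The depots differed for most of the pathway. Over the mean of the 4 groups of each depot, 7 of the 9 genes were lower in eWAT than in iWAT, where 12.5% of all tested genes were called lower and 32.4% in either direction. With the block the count was again 7, against 21.0% lower and 55.8% in either direction. The largest difference was that of Agpat2 (315 FPKM in eWAT and 649.8 in iWAT, −1.02 ± 0.074, adjusted p = 2.6e-06), then Pck1 (325 and 558, −0.85 ± 0.052, adjusted p = 7.4e-07) and Gpd1 (799 and 1247, −0.63 ± 0.057, adjusted p = 1.3e-05). Lpin1 (−0.53, adjusted p = 0.042), Dgat1 (−0.38, 0.011), Gpam (−0.36, 0.0046) and Dgat2 (−0.35, 0.0037) followed.

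Aqp7 was 73.9 FPKM in eWAT and 95 in iWAT (−0.24 ± 0.46, adjusted p = 0.75), and Mogat2 4.17 and 3.84 (0.09 ± 0.073, adjusted p = 0.41, and −0.019 with median-ratio scaling). The median difference of the 9 genes was −0.38 and that of all genes 0.10, or −0.013 after median-ratio scaling. The Lpin1 call remained in 5 of 16 fits without a library (adjusted p up to 0.093). The rosiglitazone response, averaged over genotypes, did not pass a test of its difference between depots for any of the 9 genes, with or without the block, against 2.21% and 3.83% of all genes; 2 genes, Pck1 (0.33) and Agpat2 (−0.36), had an unadjusted p under 0.05 by limma. The difference was −0.34 for Dgat1, −0.26 for Gpd1, 0.26 for Aqp7 and −0.12 for Gpam, and −0.023, −0.0044 and −0.0075 for Lpin1, Dgat2 and Mogat2. The 2 depots may come from the same mice, which the labels do not say. The fat cell marker sum, described below, was also lower in eWAT. Per 1000 FPKM of it in WT vehicle, Gpam was 3.68 and 3.73 in eWAT and 2.58 and 2.22 in iWAT. Dgat2 was 119 and 104 against 93.5 and 86.9, and Dgat1 11.7 and 10.6 against 8.66 and 8.24. Gpd1 was 72.2 and 70.9 against 65.1 and 58.2. Lower in eWAT were Pck1 (31.4 and 28.9 against 43.4 and 41.9) and Agpat2 (36.9 and 34.3 against 42.2 and 48.9). Lpin1 overlapped. The part of the markers was not tested.

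Ratios between genes within a library do not depend on how a library was scaled. These pairs were chosen after the values were seen, and the ratios are a description without a test. Dgat2 exceeded Dgat1 by 8.41 to 11.4 times in the 8 vehicle libraries and by 4.23 to 6.33 times in the 8 treated libraries, with no overlap. In eWAT WT the ratio went from 10.1 and 9.78 to 6.29 and 6.33, and in iWAT WT from 10.8 and 10.5 to 5.24 and 5.15. In K107R it went from 8.65 and 8.81 to 4.79 and 4.54 in eWAT, and from 8.41 and 11.4 to 4.23 and 4.32 in iWAT. The RNA levels of the 2 genes of the last step thus came closer in every treated group.

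Agpat2 exceeded Gpam by 10.0 and 9.20 times in eWAT WT vehicle and by 20.7 and 22.5 times after rosiglitazone. In eWAT K107R this ratio was 17.4 and 20.2 under vehicle and 19.9 and 21.8 under drug, so the vehicle libraries of K107R already stood near the treated WT libraries. In iWAT it went from 16.4 and 22.0 to 33.5 and 45.1 in WT, and from 17.1 and 23.0 to 28.7 and 38.0 in K107R. The Gpd1 to Pck1 ratio stayed between 2.27 and 2.75 in all eWAT libraries. In iWAT WT it was 1.5 and 1.39 under vehicle and 3.02 and 2.83 under drug, and in iWAT K107R 1.83 and 1.91, then 2.51 and 2.26.

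**Figure D4:**
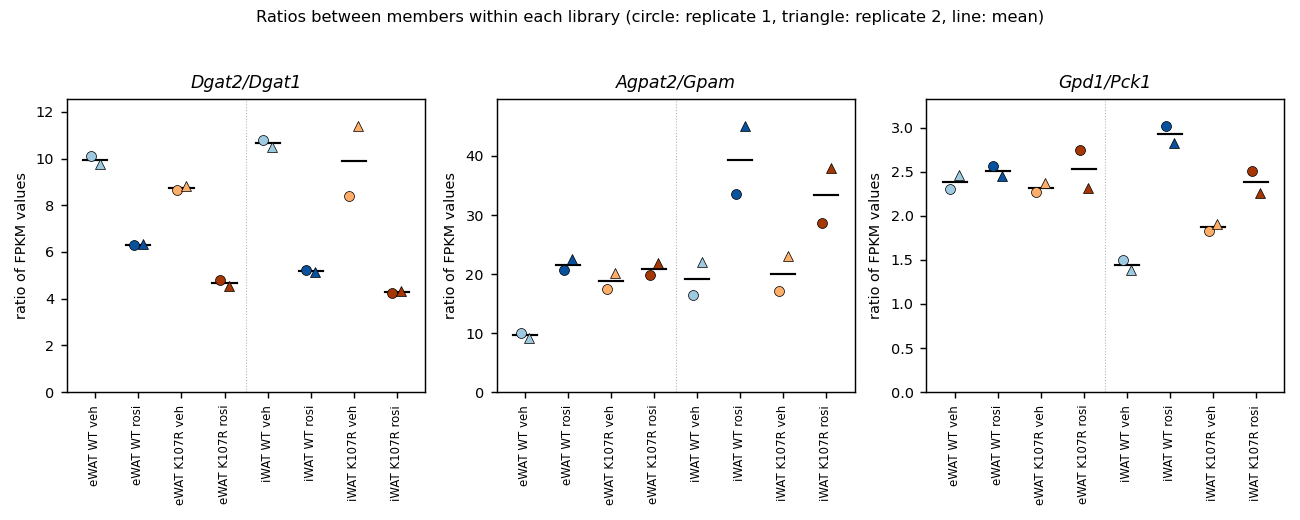
Ratios of FPKM values within each library for Dgat2 to Dgat1, Agpat2 to Gpam and Gpd1 to Pck1 (vertical axes, linear, from 0), by group: circles are number 1, triangles number 2, lines the mean. Dgat2 to Dgat1 is 8.41 to 11.4 in vehicle and 4.23 to 6.33 in treated libraries.

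The sum of fat cell markers moved with several of these genes. The sum of the 8 markers (Adipoq, Plin1, Cidec, Lep, Retn, Cfd, Lipe, Pnpla2) was 5696 and 5869.7 FPKM in eWAT WT vehicle, 6908 and 7467 in WT rosiglitazone, 6861 and 7024 in K107R vehicle, and 9330.5 and 9667 in K107R rosiglitazone. In iWAT it was 9778 and 9356, 12282 and 13326, 11573 and 10211, and 16267 and 16371. In either depot, libraries did not overlap between vehicle and drug within a genotype, or between WT and K107R within a treatment. Each iWAT pair was above the eWAT pair of its genotype and treatment. Of the list of 10, 0, 1, 1 and 3 rose with rosiglitazone in eWAT WT, eWAT K107R, iWAT WT and iWAT K107R. Of all genes 0.446%, 4.89%, 1.68% and 4.21% were called there in either direction. The calls that fell were Fabp4 or Lpl, listed at 0 in a group. Cidec and Adipoq, the markers with the highest means in the sum, had higher means with the drug in every comparison. Lep and Cfd had lower means in every one, uncalled (in eWAT WT 722 to 493 and 319.8 to 191 FPKM). The part of these markers in the results was not tested.

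Set against 1000 FPKM of those markers, the members separate. The sum itself includes markers called as rising with the drug, such as Cidec in iWAT WT (2418 to 4607 FPKM). It is therefore not a measure of fat cell content. Gpd1 was 72.2 and 70.9 in eWAT WT vehicle and 111 and 102 in treated, and 65.1 and 58.2 then 126 and 118 in iWAT WT. In K107R it was 89.7 and 87.0 then 158 and 138 in eWAT, and 74.9 and 84.6 then 127 and 116 in iWAT. Gpd1 was higher per marker in each treated pair, with no overlap. Pck1 was 31.4 and 28.9 then 43.5 and 41.7 in eWAT WT, but 43.4 and 41.9 then 41.5 and 41.6 in iWAT WT. There it was no higher per marker in the treated libraries. Pck1 in K107R was 39.5 and 36.7 then 57.4 and 59.7 in eWAT, and 40.9 and 44.2 then 50.5 and 51.1 in iWAT.

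On the same footing Dgat2 and Mogat2 were lower in every treated pair. Dgat2 went from 119 and 104 to 84.1 and 74.9 in eWAT WT and from 103 and 81.9 to 49.7 and 56.9 in eWAT K107R. In iWAT it went from 93.5 and 86.9 to 64.3 and 56.9 in WT and from 69.4 and 72.3 to 39.6 and 34.9 in K107R. Agpat2 was 46.0 and 42.8 in eWAT K107R vehicle and 43.0 and 46.7 in treated, overlapping, and 42.2 and 48.9 then 63.9 and 73.7 in iWAT WT. In iWAT K107R Agpat2 was 38.8 and 47.9 then 45.3 and 54.2, and Dgat1 8.25 and 6.35 then 9.37 and 8.09, both overlapping. Dgat1 in iWAT WT was 8.66 and 8.24 then 12.3 and 11.1, without overlap. Between genotypes, Gpd1 overlapped in treated iWAT (126 and 118 in WT, 127 and 116 in K107R) and was higher in K107R in the other pairs.

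Other cell types also moved with the groups. Of 6 brown or beige fat cell markers in the table, 5 rose with rosiglitazone in eWAT K107R, where 4.89% of all genes were called. Their sum there went from 63.1 and 60.4 to 200.1 and 209.8 FPKM. In treated eWAT of WT the sum was 71.2 and 69.9. There 4 of the 6 were higher in K107R than in WT, against 0.907% of all genes, beside the higher Pck1 and Gpd1 of that comparison. In vehicle eWAT 1 was, Cidea, against 3.35%. In iWAT the sum of these 6 went from 169 and 167 to 308 and 347 in WT and from 133 and 128 to 282 and 242 in K107R. With the drug 2 of the 6 rose in each genotype, against 1.68% and 4.21% of all genes. Between genotypes in treated iWAT 1 was higher and 1 lower in K107R, against 4.13%. Macrophage markers (8 genes) summed to 1183 to 1911 FPKM in eWAT and 253 to 441 in iWAT, beside the lower levels of 7 members in eWAT. Skeletal muscle markers were highest in iWAT K107R vehicle, at 110.2 and 118 FPKM, and lymphocyte markers lowest among iWAT groups in K107R rosiglitazone, at 33.6 and 21.5. The part of these cell types in the members' values was not tested.

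Among other genes of glycerol supply, Pcx, Mdh2 and Aldoa rose with rosiglitazone in 3 of the 4 comparisons. The list held 13 genes, of which 12 were in the table and tested. With rosiglitazone 0 were called in eWAT WT, 3 rose and 1 fell in eWAT K107R, 3 rose in iWAT WT and 3 rose in iWAT K107R, where 0.446%, 4.89%, 1.68% and 4.21% of all genes were called. With the block 1 rose in eWAT WT, 3 rose and 2 fell in eWAT K107R, 4 rose in iWAT WT and 5 rose in iWAT K107R, against 2.47%, 10.9%, 6.98% and 12.4%. The 3 that rose by limma without the block were the same each time: Pcx, the mitochondrial pyruvate carboxylase that makes oxaloacetate, Mdh2, the mitochondrial malate dehydrogenase, and Aldoa, an aldolase of glycolysis. Pcx went from 182 to 312 FPKM in eWAT K107R (0.78 ± 0.11, adjusted p = 0.0017), from 279 to 534 in iWAT WT (0.93 ± 0.11, adjusted p = 0.0036) and from 238 to 502 in iWAT K107R (1.07 ± 0.11, adjusted p = 0.00056). Mdh2 changed by 0.54, 0.86 and 0.94 and Aldoa by 0.47, 0.68 and 0.69 in those comparisons. The median change of the list was 0.068 in eWAT WT, 0.41 in eWAT K107R, 0.27 in iWAT WT and 0.38 in iWAT K107R, beside 0.034, 0.17, 0.027 and 0.027 for all genes.

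The gene that fell in eWAT K107R was Aqp9, a glycerol channel known from liver (3.70 to 0.573 FPKM, −1.54 ± 0.21, adjusted p = 0.00096). Aqp9 and the mitochondrial aspartate aminotransferase Got2 were the 2 list genes higher in K107R than in WT in vehicle eWAT (Aqp9 1.33 and 3.70 FPKM, 0.98, adjusted p = 0.027; Got2 32.4 and 71.4, 1.12, adjusted p = 0.048). These are the libraries with epididymis markers at 2879 and 2776 FPKM, and the part of that RNA in both genes was not tested. Without the block no gene of the list was called between genotypes in the other 3 pairs of groups. With it 1 was, Mdh2, higher in treated eWAT of K107R (0.53, adjusted p = 0.013, against 3.47% of all genes).

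Of the other genes of triglyceride assembly, 22 in the list, 20 were tested. With rosiglitazone 0 were called in eWAT WT, 2 rose in eWAT K107R, 1 rose in iWAT WT, and 2 rose and 1 fell in iWAT K107R, against the same 0.446%, 4.89%, 1.68% and 4.21% of all genes. With the block 0 were called in eWAT WT, 5 rose and 1 fell in eWAT K107R, 4 rose and 1 fell in iWAT WT, and 6 rose and 1 fell in iWAT K107R, against 2.47%, 10.9%, 6.98% and 12.4%. The median change of the list was 0.10, 0.33, 0.10 and 0.15, beside 0.034, 0.17, 0.027 and 0.027 for all genes. The 2 that rose in eWAT K107R without the block were Fitm2, which helps lipid droplets form (43.7 to 84.0 FPKM, 0.94 ± 0.19, adjusted p = 0.016), and Agpat3, an acyltransferase of the Agpat2 family (61.5 to 99.2, 0.69 ± 0.16, adjusted p = 0.041). Agpat6, the older symbol of Gpat4, an alternative to Gpam in the endoplasmic reticulum, rose in iWAT WT (33.9 to 55.5, 0.69 ± 0.13, adjusted p = 0.024) and iWAT K107R (39.1 to 64.2, 0.70 ± 0.13, adjusted p = 0.011). Agpat3 rose in iWAT K107R too (62.2 to 113, adjusted p = 0.017), while Lpin3, a relative of Lpin1, fell there (6.38 to 3.48, −0.72 ± 0.16, adjusted p = 0.034). Without the block no gene of the list was called between genotypes in any single group pair. With it 2 were higher in treated eWAT of K107R, Agpat3 (0.63, adjusted p = 0.0067) and Fitm2 (0.63, 0.043), against 3.47% of all genes, and Agpat3 was higher in treated iWAT (0.51, 0.0082), against 9.36%.

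Between depots, 3 of the glycerol list were higher in eWAT and 3 lower, and of the assembly list 4 were higher and 5 lower, where 32.4% of all genes were called. With the block these counts were 3 and 4, and 7 and 6, against 55.8%. Got1 and Got2 were higher in eWAT (0.91 and 0.98) and Pcx lower (230.4 and 388 FPKM, −0.70). Mogat1, the relative of Mogat2, was lower in eWAT (3.23 and 7.19 FPKM, −0.95 ± 0.11, adjusted p = 6.0e-05) and Agpat4 higher (12.7 and 6.83, 0.81 ± 0.060).

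**Figure D5:**
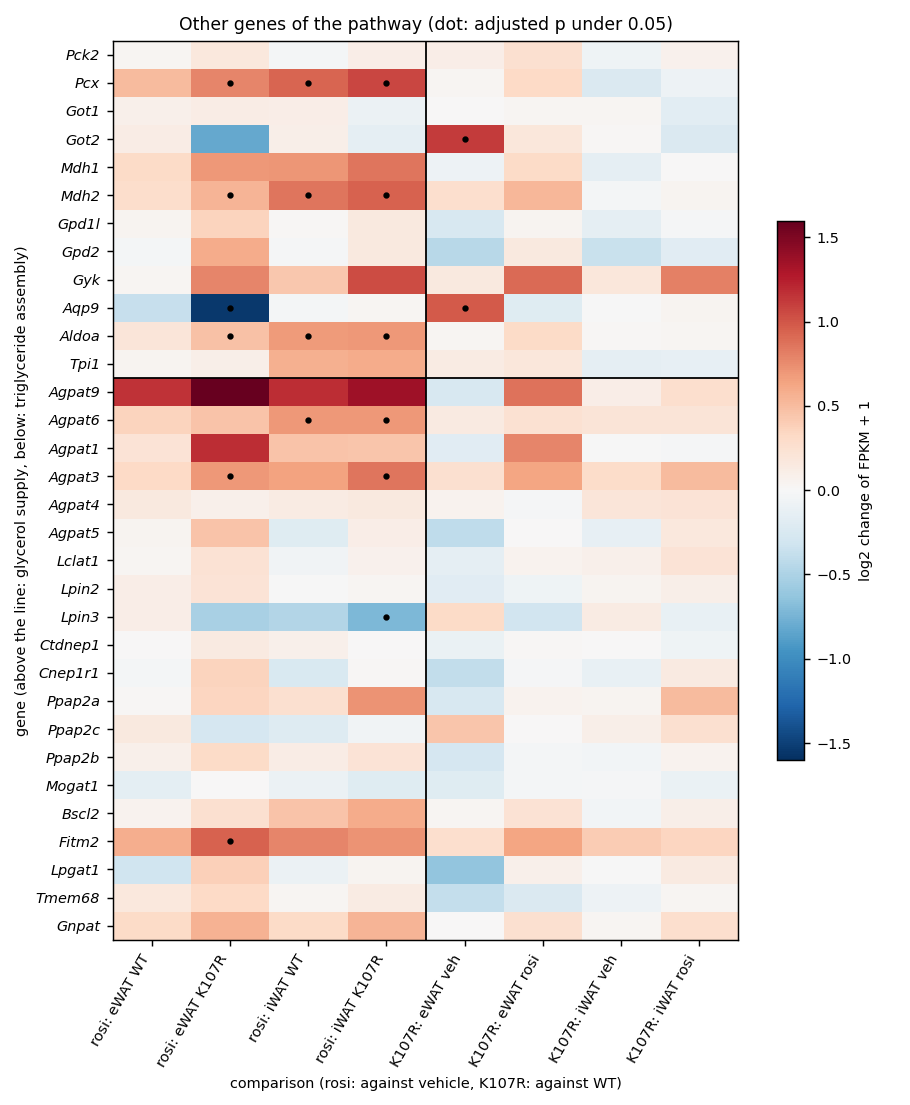
Log2 change of FPKM + 1 (colour scale) of the 32 other tested genes of the pathway (rows, glycerol supply above the line and triglyceride assembly below) in 4 comparisons of rosiglitazone with vehicle and 4 of K107R with WT (columns), with a dot where the limma adjusted p was under 0.05. Pcx, Mdh2 and Aldoa carry dots in 3 drug comparisons, and Got2 and Aqp9 are the genes with dots between genotypes.

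Likeness of pattern was described by the correlation of mean log2 values over the 8 groups, among 7538 tested genes that reached a group mean of 10 FPKM. These points share depot, genotype and treatment, and r is a description. Gpd1 was most like Tmem11 (r = 0.996) and Ndufa4 (0.990), Dgat1 like Coq9 (0.996) and Mlycd (0.992), and Agpat2 like Ech1 and Ndufv3 (both 0.993). Lpin1 was most like Dhrs7b (0.993) and Acacb (0.990), Pck1 like Evi5l and Adh1 (both 0.985), Aqp7 like Sh3pxd2a (0.982) and 1600014C10Rik (0.981), and Dgat2 like Ddit4 and Gm6484 (both 0.982). Gpam had the least close matches, Megf9 (0.917) and Cd209f (0.905), and Mogat2 did not reach 10 FPKM. Among the members themselves r was 0.98 for Gpd1 with Lpin1, 0.92 for Gpd1 with Pck1, −0.97 for Aqp7 with Mogat2 and 0.00 for Pck1 with Dgat2.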

How the data were processed

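Whole-fat RNA of 16 libraries was read as 75-nt single ends from stranded mRNA libraries made from 4 ug of total RNA, per the labels' protocols. The authors deposited FPKM values for 14023 genes, and these were used without change. The submitters' processing notes name TopHat2 2.0.12, mm10, Cufflinks 2.2.1 and CASAVA 1.8.2; annotation, strand setting and scaling between libraries are not given in the sources used here, so reads of overlapping genes may be shared. Every library was placed in its group by its labels.

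The 13669 genes that reached 1 FPKM in 2 or more libraries were transformed to log2(FPKM + 1), with a pseudocount of 1, which makes changes of low genes such as Mogat2 smaller. A single model of the 16 libraries, with a mean for each group and a trend of variance on mean, was fitted in limma 3.58.1 (R 4.3.3), and p-values, two-sided, were adjusted by Benjamini-Hochberg over all tested genes within each of 16 contrasts. The fit was checked on simulated data for rosiglitazone in eWAT WT only. The simulated libraries varied independently, so that check did not cover libraries that deviate together. The members and lists were chosen with earlier results of these data known. The replicate numbers come from the labels. Same-numbered libraries of different groups deviated from their means together, with r of 0.12 to 0.79 (median 0.57), over 0.1 in all 28 pairs of groups. The number was taken to pair them in the block alternative only. Errors, intervals and calls are from the fit without the block unless stated. For Aqp7 the SE of a drug change was 0.91 without it and 0.35 with it.

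Every member is named in each comparison of single groups, in the interactions and between depots, and in the averages where it was called. Of each pathway list, up to 4 genes called without the block, with the largest change, are named in each comparison of single groups. Between depots only some are named, and the averages of the lists are not given. For likeness the 2 genes with the highest r are named. Coordinates and promoters (250 bases before a start, 7 entries for 5 members) are RefSeq's for GRCm38.p6; Gpd1, Dgat1, Dgat2 and Mogat2 had no entry. Alternatives were a pseudocount of 0.1, no filter, median-ratio scaling, 1 depot alone, the replicate block and each library left out. Setting aside the genes seen in the eWAT K107R vehicle libraries alone (the epididymal setting) was chosen after seeing the data.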

Additional observations from a re-analysis of the deposited data

Results flagged for a closer look

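In eWAT the Gpam libraries moved in opposite directions with rosiglitazone in the 2 genotypes, although neither change was called. Both WT treated libraries, 14.5 and 14.9 FPKM, lay below both WT vehicle libraries, 21.0 and 21.9 (log2 change −0.51, limma adjusted p = 0.37). Both K107R treated libraries, 20.1 and 20.7, lay above both K107R vehicle libraries, 18.1 and 14.9 (0.30, adjusted p = 0.62). The test of the difference gave an interaction of 0.81 ± 0.22 on the log2 scale, with an adjusted p of 0.13, and 0.022 with the replicate number as a block. With median-ratio scaling the K107R change was 0.085 and the interaction 0.61 (adjusted p = 0.93). Per 1000 FPKM of fat cell markers, Gpam in K107R was 2.64 and 2.12 under vehicle and 2.16 and 2.14 under drug, which overlap, and in WT 3.68 and 3.73, then 2.09 and 2. The K107R vehicle libraries carried epididymis markers at 2879 and 2776 FPKM. With the genes seen in those libraries alone set aside, the interaction was 0.79 (limma adjusted p = 0.16). That setting leaves in any epididymal Gpam RNA, so the part of such RNA was not tested.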

How the results depend on the processing

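With the depot's libraries alone the count of members called became 0 for rosiglitazone in eWAT WT (3 in the reported fit), iWAT WT (3) and iWAT K107R (5), 2 for its average in iWAT (5), and 0 for K107R against WT in vehicle eWAT (2), treated eWAT (2), treated iWAT (1) and the iWAT average (2). Median-ratio scaling gave 0, 1 and 2 for rosiglitazone in eWAT WT, iWAT WT and iWAT K107R, and for K107R against WT 0 in vehicle eWAT, treated eWAT and treated iWAT and 1 in the eWAT and iWAT averages. The genes called after scaling differed from those of the reported fit: Lpin1 alone in iWAT WT and in both K107R averages, and Lpin1 and Mogat2 in iWAT K107R and in eWAT K107R (2 called in each). Pck1 and Gpd1 were lost in the K107R averages of eWAT (adjusted p = 0.085 and 0.079), and Pck1 in the rosiglitazone averages of eWAT (0.071) and iWAT (0.19). The median over all genes went, with scaling, from 0.17 to −0.0033 for rosiglitazone in eWAT K107R, from −0.13 to 0.015 for K107R against WT in vehicle eWAT, from 0.15 to −0.021 for the eWAT interaction and from 0.10 to −0.013 between depots. With the replicate block, which pairs same-numbered libraries, the counts became 6 in eWAT K107R and iWAT WT, 7 in the eWAT average, 1 in the eWAT interaction, and 1 and 2 for K107R against WT in vehicle and treated iWAT; it ended no call. The share of all genes called was worked out only for the reported fit and the block. A lower count under another setting therefore need not be particular to the members. The cause of these shifts was not tested.

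Leaving out 1 library at a time leaves an arm with 1 sample, which the fit assumes to vary like the others. For these fits, too, the share of all genes called was not worked out. The counts for rosiglitazone were then 0 to 0 in eWAT WT, 3 to 3 in eWAT K107R, 3 to 4 in the eWAT average, 1 to 2 in iWAT WT, 3 to 4 in iWAT K107R and 5 to 5 in the iWAT average. For K107R against WT they were 0 to 1 in vehicle and treated eWAT, 2 to 3 in the eWAT average, 0 to 0 and 0 to 1 in vehicle and treated iWAT, and 2 to 2 in the iWAT average. Between depots 6 to 7 were called, and 0 in the interactions and the depot difference of the response. Over the member and pathway values, 49 lost and 26 gained a call under the other settings and 61 lost one without a library; no called value changed sign, and 12 and 78 uncalled values did. No filter and the epididymal setting changed no count of members, and a pseudocount of 0.1 lost Mogat2 in eWAT WT. Depth is unknown.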
